A study of Neurospora crassa with 10 samples.

Results

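Mycelium of *Neurospora crassa* that had been lit for 60 min was compared with mycelium kept in the dark, by RNA-seq of capped and polyadenylated RNA. The comparison takes 4 of the 10 samples of the series, 2 at 60 min and 2 in the dark, by the light time in their labels. Each 60 min sample was set against the dark sample with the same replicate number, and values are given in the order of replicate 1 and replicate 2. All 4 samples came from wild-type strain FGSC2489 in shaken liquid culture (Bird's medium, 25°, 150 rpm), grown for 24 hr in the dark. The 60 min cultures then had 60 min of cool white fluorescent light at 1200 lux, and the dark cultures had none. The unit is FPKM, fragments mapped to a transcript over its length and over a library total, so levels of different genes are per length. How that total was scaled between samples is not given in the sources used here. Of 9728 genes, 7688 had mean FPKM above 1 at 1 or more of the 5 time points of the series, and these expressed genes were tested. The replicates were separate cultures. For replicate 1 polyadenylated RNA was taken up on oligo(dT) cellulose and for replicate 2 on magnetic beads of a kit, and replicate 2 was sequenced less deeply, so isolation method, depth and replicate number cannot be told apart. The tables hold no read counts, so the depth behind a value is unknown here and precision is that of the replicates.

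*N. crassa* senses blue light with WC-1, a transcription factor that carries a flavin and that acts with WC-2 as the white collar complex (WCC). In light the WCC binds promoters and activates a first wave of genes, several of which encode transcription factors that act on later genes. VVD, a small photoreceptor that is itself induced, binds the WCC and dampens its activity as light continues. In mycelium, light is known to start the synthesis of orange carotenoids, to promote the formation of conidia (asexual spores) and to reset the circadian clock, whose core component is FRQ.

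At 60 min 595 genes rose and 520 fell. Here a gene is said to have risen or fallen where the adjusted p from limma was 0.05 or less and the ratio of FPKM plus 1 to the dark passed 2-fold in the same direction in both replicates. These are 7.74% and 6.76% of the genes tested. The adjusted p alone was passed by 2212 higher genes (28.8%) and 2809 lower genes (36.5%), or 65.3% of all. The 2-fold criterion alone gave the same 595 and 520 genes. It therefore carries all of the selection, and the adjusted p removed no gene. The changes were lopsided in size. A 4-fold change in both replicates was reached by 154 genes upward and 16 downward, an 8-fold change by 58 and 0, and a 64-fold change by 7 and 0. The median log2 change was 1.62 among the genes that rose (1.01 to 8.74) and -1.39 among those that fell (-2.65 to -1.01). The only gene past 2-fold in opposite directions in the 2 replicates was NCU04163, named after its values were seen, with 0 and 1.03 FPKM at 60 min, against 1.01 and 0 FPKM in the dark.

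**Figure D1:**
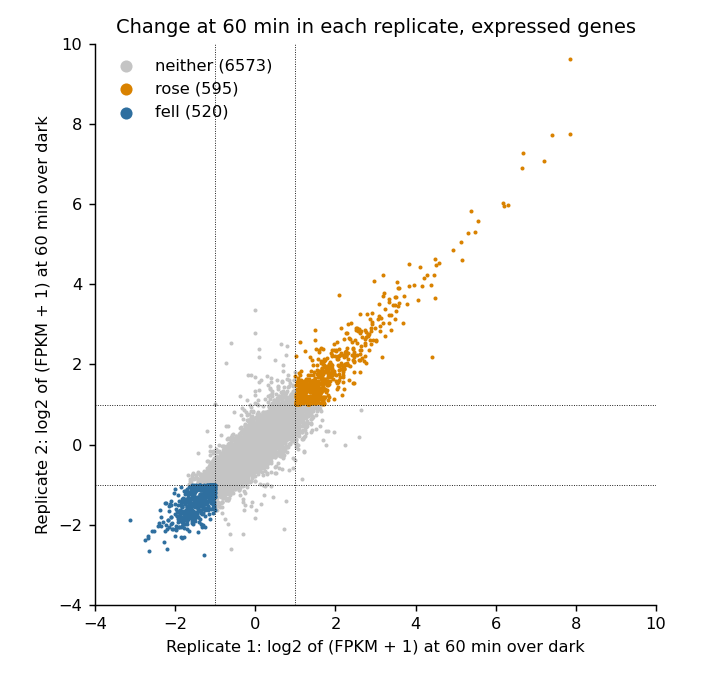
Log2 of the ratio of FPKM plus 1 at 60 min to that in the dark, in replicate 1 (x axis) and replicate 2 (y axis), for the 7688 expressed genes. Dotted lines mark 2-fold. The genes that rose reach 8.74 as the mean of both replicates, whereas those that fell stop at -2.65.

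The genes that rose were far more abundant at 60 min than those that fell, and only somewhat more abundant in the dark. Their mean FPKM had a median of 68.6 at 60 min and 16.5 in the dark, against 3.82 at 60 min and 11.8 in the dark for the genes that fell. Of the 614 expressed genes with mean FPKM of 100 to 1000 over the 4 samples, 154 rose (25.1%) and 11 fell (1.79%). Of the 160 genes at 1000 or more, 26 rose and 0 fell, and of the 3648 genes between 1 and 10, 119 rose (3.26%) and 309 fell (8.47%). These means include the 60 min values that made the calls. Genes that rose are thereby shifted to higher levels and genes that fell to lower ones. The 1 added to each FPKM shrinks the change of a low gene, so the log2 changes of the genes that fell understate their ratios.

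The sum of FPKM over all genes was also higher at 60 min, at 944127 and 1009367, than in the dark, at 570422 and 729103. The ratio was 1.66 in replicate 1 and 1.38 in replicate 2. At the other times the sum lay between 559990 and 739137, so both 60 min samples stood above the other 8 of the series. Abundant genes carried the difference. There were 175 and 183 genes at 1000 FPKM or more at 60 min, with 68.3% and 73.6% of the sum, against 107 and 138 genes with 53.1% and 67.0% in the dark. The FPKM gained by genes that were higher came to 407846 and 324189, of which the top 50 and 43 genes made at least as much as all the others together, while the FPKM lost by genes that were lower came to -34141 and -43924. The genes that rose made 39.7% and 45.3% of the gain and the genes for cytoplasmic ribosomal proteins 22.7% and 17.2%. The median expressed gene moved little, by -0.08 and -0.09 on the log2 scale.

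**Figure D2:**
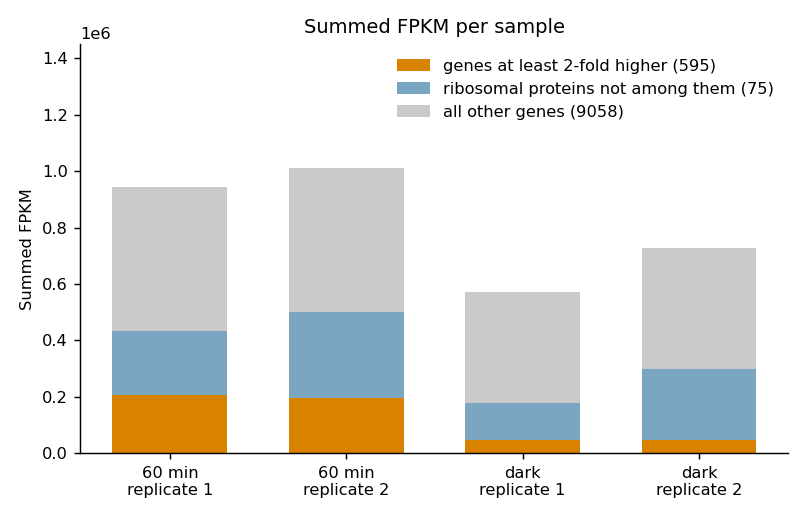
Summed FPKM of the 60 min and the dark samples, in 2 replicates each, split into the 595 genes that rose, the other 75 genes for cytoplasmic ribosomal proteins and all other genes. Both 60 min bars (944127 and 1009367) are taller than both dark bars (570422 and 729103), and each of the 3 parts is larger at 60 min in the same replicate.

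The deposited values were tested as they stand, and the scale matters for small changes. After a rescaling of all samples to an equal sum, chosen after the sums were seen, the same criteria gave 263 genes that rose and 1416 that fell, and the adjusted p alone gave 884 and 4599. With the samples scaled to an equal median the criteria gave 801 and 319, and the adjusted p alone 2837 and 2094. The median log2 change of all expressed genes was -0.09 as deposited, 0.09 after median scaling, -0.07 after quantile normalization and -0.56 after scaling to an equal sum. Gene lists whose median changes sign under one of these are named with the lists.

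The tissue is labelled mycelium. *hex-1*, which encodes the protein of the Woronin bodies that plug the septa of hyphae, had 1617 and 2023 FPKM at 60 min, against 1709.7 and 2299.8 FPKM in the dark, which did not pass the test (log2 change -0.13, standard error 0.13, adjusted p = 0.39, limma). Of the markers of sexual structures, the pheromone receptor genes *pre-1* and *pre-2* were under 1 FPKM in all 4 samples. The pheromone gene *ccg-4* (NCU02500) had 330.4 and 622 FPKM at 60 min, against 149 and 354 FPKM in the dark (log2 change 0.98, standard error 0.12, adjusted p = 4.4e-04, limma, and adjusted p = 0.37 without the replicate block and 0.17 with all 10 samples). The conidial markers are given with the conidiation genes. In such bulk RNA, a change in the share of a cell type and a change in RNA per cell cannot be told apart.

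Photoreceptor genes were among those that rose. Of 7 such genes 6 were expressed, and 4 of these rose and 0 fell, against 7.74% and 6.76% of all genes tested. *vvd* (NCU03967) had 191 and 104 FPKM at 60 min, against 4.52 and 2.18 FPKM in the dark, so that all light values were far above all dark values. The ratios to the dark were 42.4 and 48.0 (log2 change 5.09, standard error 0.08, adjusted p = 1.8e-07, limma). *cry* (NCU00582), which encodes a DASH-type cryptochrome, had 98.2 and 47.3 FPKM at 60 min, against 1.76 and 0.996 FPKM in the dark, with ratios of 55.9 and 47.4 (log2 change 4.88, standard error 0.17, adjusted p = 3.2e-06, limma).

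The other 2 that rose were at much lower levels. *wc-1* (NCU02356) had 14.7 and 5.48 FPKM at 60 min, against 4.88 and 1.34 FPKM in the dark (log2 change 1.44, standard error 0.12, adjusted p = 7.4e-05, limma, and adjusted p = 0.27 without the replicate block). Its lowest 60 min value lay just above its highest dark value, and both times were lower in replicate 2. *nop-1* (NCU10055), which encodes an opsin, had 10.1 and 7.93 FPKM at 60 min, against 2.13 and 2.18 FPKM in the dark (log2 change 1.66, standard error 0.12, adjusted p = 4.3e-05, limma). *wc-2* (NCU00902) moved the other way, with 7.38 and 6.10 FPKM at 60 min, against 12.3 and 12.8 FPKM in the dark, short of 2-fold in both replicates (log2 change -0.81, standard error 0.11, adjusted p = 5.9e-04, limma). The phytochrome gene *phy-1* (NCU04834) had 4.21 and 2.19 FPKM at 60 min, against 4.70 and 2.73 FPKM in the dark and did not pass the test (limma, adjusted p = 0.14), and *phy-2* (NCU05790) was under 1 FPKM in all 4 samples and was not tested.

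Among 10 clock genes 2 rose and 1 fell (20% and 10%, against 7.74% and 6.76% of all genes tested), and 3 fell without replicate 1 of either time. *frq* (NCU02265), the core clock gene, had 57.8 and 22.6 FPKM at 60 min, against 10.62 and 2.71 FPKM in the dark, with ratios of 5.44 and 8.34 (log2 change 2.50, standard error 0.12, adjusted p = 1.2e-05, limma, and adjusted p = 0.1 without the replicate block). Replicate 2 was the lower in light and in dark, and the groups did not overlap. *ccg-1* (NCU03753), a clock-controlled and glucose-repressible gene, had 22070.2 and 19299 FPKM at 60 min, against 2357 and 2970.5 FPKM in the dark (log2 change 2.96, standard error 0.22, adjusted p = 4.8e-05, limma), and was the gene that gained the second most FPKM in the genome. *adv-1* (NCU07392), a transcription factor gene that links the clock to development, fell to 6.80 and 6.80 FPKM at 60 min, against 15.9 and 14.8 FPKM in the dark (log2 change -1.07, standard error 0.09, adjusted p = 7.5e-05, limma).

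The remaining 7 clock genes did not pass 2-fold in both replicates. *frh* (NCU03363), whose product is the helicase partner of FRQ, had 5.64 and 4.05 FPKM at 60 min, against 10.7 and 7.62 FPKM in the dark (log2 change -0.79). *camk-1* (NCU09123) and *rgb-1* (NCU09377), for a calcium/calmodulin kinase and a phosphatase subunit that act on FRQ, had log2 changes of -1.02 and -0.995. *pph-3* (NCU00043), annotated as a protein phosphatase, had -0.59, and *fwd-1* (NCU04540), for the F-box protein that targets FRQ for degradation, had -0.39. *ck-1a* (NCU00685), a casein kinase I gene, was at 0.46, and with the samples scaled to an equal sum its sign turned (-0.13). Without the replicate block none of the genes named in this paragraph kept its call (adjusted p = 0.059 to 0.397, limma). With all 10 samples *pph-3*, *rgb-1*, *fwd-1* and *ck-1a* also lost theirs (adjusted p = 0.073 to 0.488, limma). The median of the list was -0.49 and kept its sign under each scaling.

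**Figure D3:**
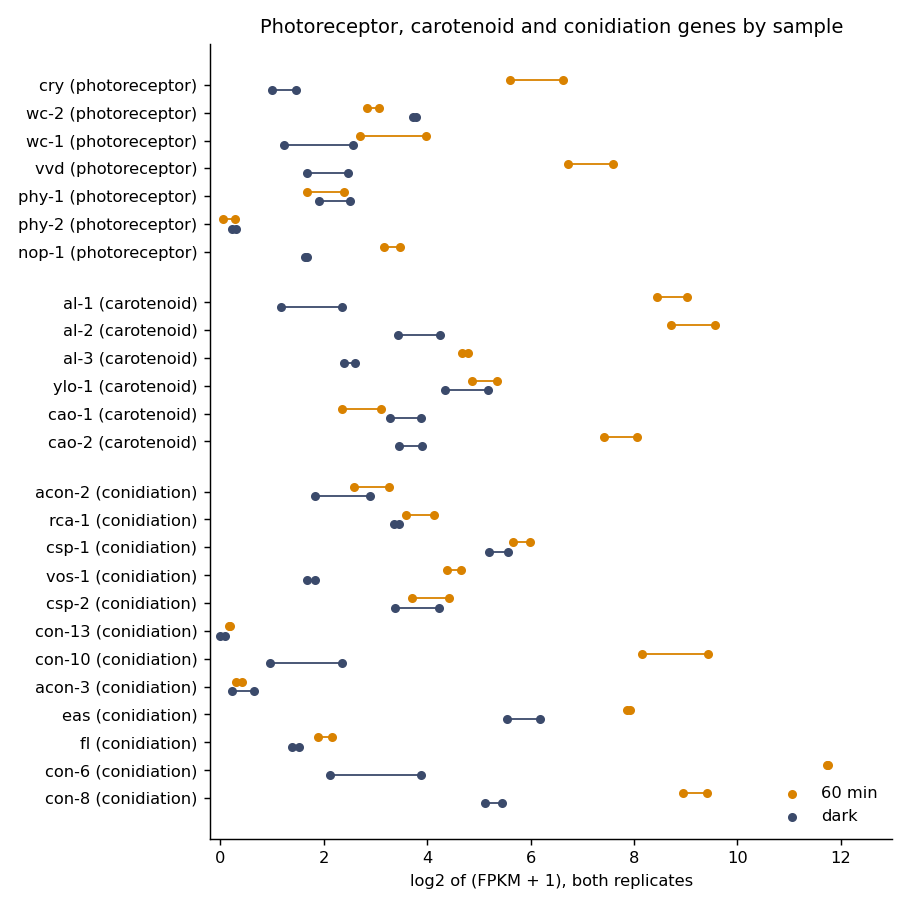
Log2 of FPKM plus 1 of the photoreceptor, carotenoid and conidiation genes, each replicate as a point, with 60 min (orange) drawn above the dark (blue) for each gene and a line joining the 2 replicates. *vvd*, *cry*, *al-1*, *al-2*, *cao-2*, *con-6*, *con-8* and *con-10* have both 60 min points well to the right of both dark points, while *phy-1* and *acon-3* overlap between the groups and *phy-2* and *con-13* lie near 0.

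Carotenoid synthesis in *N. crassa* runs from geranylgeranyl diphosphate, made by AL-3, through phytoene, made and later cyclized by AL-2, and desaturation by AL-1 to torulene, which CAO-2 cleaves and YLO-1 oxidizes to neurosporaxanthin. Of the 6 genes of this list, 4 rose (66.7%, against 7.74% of all genes tested) and 0 fell, and the median log2 change was 3.15. *al-1* (NCU00552) had 523 and 346 FPKM at 60 min, against 4.07 and 1.25 FPKM in the dark, with ratios of 128 and 276 (log2 change 6.98, standard error 0.18, adjusted p = 1.0e-06, limma). *al-2* (NCU00585) had 753 and 418 FPKM at 60 min, against 18.1 and 9.81 FPKM in the dark (log2 change 5.29, standard error 0.08, adjusted p = 1.8e-07, limma). In both genes replicate 1 was the higher in light and in dark, and the groups were far apart.

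*cao-2* (NCU11424) had 266 and 169 FPKM at 60 min, against 13.9 and 10.0 FPKM in the dark (log2 change 4.05, standard error 0.09, adjusted p = 5.1e-07, limma). *al-3* (NCU01427) had 24.6 and 26.6 FPKM at 60 min, against 5.06 and 4.24 FPKM in the dark, the smallest rise of the 4 (log2 change 2.24, standard error 0.10, adjusted p = 8.7e-06, limma). *ylo-1* (NCU04013), the last step, had 39.7 and 28.2 FPKM at 60 min, against 35.0 and 19.3 FPKM in the dark, a change well under 2-fold (log2 change 0.35, standard error 0.11, adjusted p = 0.025, limma) whose call was lost without the replicate block (adjusted p = 0.54), without either 60 min sample or dark replicate 2 (adjusted p = 0.052 to 0.16) and whose sign turned with an equal sum (-0.23). *cao-1* (NCU07008), which encodes an oxygenase that acts on resveratrol and not on carotenoids, had 7.64 and 4.08 FPKM at 60 min, against 13.7 and 8.66 FPKM in the dark (log2 change -0.85, standard error 0.11, adjusted p = 4.9e-04, limma, and adjusted p = 0.23 without the replicate block and 0.47 with all 10 samples), and it shares its FPKM with the neighbouring locus NCU07007 in all 10 samples, so the value is not of that gene alone. The steps of the pathway thus differed widely in size of change, with *al-1* at the top and *ylo-1* at the bottom.

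Conidiation genes include structural genes that are expressed as conidia form and regulators of the process. Of 12 such genes 11 were expressed, 5 rose (45.5%, against 7.74% of all genes tested) and 0 fell. *con-6* (NCU08769) was the largest rise of all expressed genes, with 3408 and 3456 FPKM at 60 min, against 13.8 and 3.36 FPKM in the dark (log2 change 8.74, standard error 0.45, adjusted p = 1.3e-05, limma). The 60 min samples were nearly alike, and the ratios of 248 and 1027 differed through the dark samples. *con-10* (NCU07325) had 284 and 691 FPKM at 60 min, against 0.944 and 4.11 FPKM in the dark, with ratios of 301 and 168 (log2 change 7.14, standard error 0.20, adjusted p = 1.3e-06, limma).

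*con-8* (NCU09235) had 492 and 680.5 FPKM at 60 min, against 33.8 and 42.7 FPKM in the dark (log2 change 3.89, standard error 0.11, adjusted p = 1.3e-06, limma). *eas* (NCU08457), which encodes the hydrophobin of the rodlet layer that makes conidia water-repellent, had 232 and 243 FPKM at 60 min, against 71.4 and 45.7 FPKM in the dark (log2 change 2.03, standard error 0.16, adjusted p = 6.9e-05, limma). *vos-1* (NCU05964), a homolog of the regulator VosA known from *Aspergillus*, had 24.0 and 20.0 FPKM at 60 min, against 2.53 and 2.21 FPKM in the dark (log2 change 2.76, standard error 0.09, adjusted p = 2.2e-06, limma). In all 5 genes, picked as past 2-fold in both replicates, both 60 min values lay above both dark values. *con-13* (NCU07324) was at 0.122 and 0.144 FPKM at 60 min, against 0.0640 FPKM and a listed 0 in the dark, and was not tested.

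None of the other regulators passed 2-fold in both replicates. *fl* (NCU08726), the main activator of conidiation, had 3.48 and 2.71 FPKM at 60 min, against 1.86 and 1.63 FPKM in the dark (log2 change 0.57, standard error 0.11, adjusted p = 0.0029, limma, and adjusted p = 0.15 without the replicate block, 0.091 with all 10 samples and 0.39 with an equal sum). *csp-1* (NCU02713) and *csp-2* (NCU06095), needed for conidia to separate, had log2 changes of 0.44 and 0.26, and both signs turned with an equal sum (-0.14 and -0.29). *acon-2* (NCU00478) had 0.57 (0.055 with an equal sum), *rca-1* (NCU01312) had 0.45 (-0.10 with an equal sum) and *acon-3* (NCU07617) had 0.335 and 0.237 FPKM at 60 min, against 0.567 and 0.169 FPKM in the dark. The calls of *csp-1*, *csp-2*, *acon-2* and *rca-1* were lost without the replicate block (adjusted p = 0.245 to 0.739, limma). They were also lost with all 10 samples (adjusted p = 0.078 to 0.323, limma). Over the 5 conidial markers the summed level was 4416 and 5070.4 FPKM at 60 min, against 120.0 and 95.9 FPKM in the dark, with 4 of 5 up and *con-13* near 0. The part of conidia in the other results was not tested.

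The rest of the largest rises were led by genes of unknown or loosely annotated function. *bli-4* (NCU08699), a blue-light-induced gene, had 555 and 508 FPKM at 60 min, against 1.39 and 1.36 FPKM in the dark, and its 2 replicates were nearly alike in light and in dark (log2 change 7.81, standard error 0.08, adjusted p = 3.1e-08, limma). NCU08770, a gene next to *con-6* on the RefSeq map, had 582 and 554 FPKM at 60 min, against 2.46 and 1.62 FPKM in the dark (log2 change 7.56, standard error 0.25, adjusted p = 2.5e-06, limma). *bli-3* (NCU07267) had 2578 and 2062 FPKM at 60 min, against 24.4 and 16.3 FPKM in the dark (log2 change 6.78, standard error 0.13, adjusted p = 4.3e-07, limma). All 3 were at 24.4 FPKM or less in the dark and at 508 FPKM or more in light.

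NCU06915 had 85.2 and 62.3 FPKM at 60 min, against 0.0975 and 0 FPKM in the dark, so it was almost absent in the dark (log2 change 6.14, standard error 0.31, adjusted p = 1.2e-05, limma). NCU09049 had 349 and 278 FPKM at 60 min, against 3.78 and 3.24 FPKM in the dark (log2 change 6.12, standard error 0.09, adjusted p = 1.8e-07, limma). NCU06597 had 4316 and 3553 FPKM at 60 min, against 95.3 and 89.5 FPKM in the dark (log2 change 5.39, standard error 0.14, adjusted p = 1.0e-06, limma), the highest 60 min level among the 12 largest rises.

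Of the annotated genes, NCU11395, an S-(hydroxymethyl)glutathione dehydrogenase, an enzyme that oxidizes formaldehyde bound to glutathione, had 832 and 527 FPKM at 60 min, against 10.3 and 7.49 FPKM in the dark (log2 change 6.08, standard error 0.12, adjusted p = 4.8e-07, limma). NCU02190, annotated as an oxysterol-binding protein, had 94.2 and 81.8 FPKM at 60 min, against 1.30 and 0.450 FPKM in the dark (log2 change 5.60, standard error 0.12, adjusted p = 5.1e-07, limma). NCU01861, a short-chain dehydrogenase/reductase, had 321 and 243 FPKM at 60 min, against 5.85 and 4.09 FPKM in the dark (log2 change 5.57, standard error 0.10, adjusted p = 3.5e-07, limma). With *al-1*, *con-6* and *con-10* these make the 12 largest rises. Each had no overlap between its groups, but the genes were picked for large changes in both replicates.

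Light produces reactive oxygen, which catalases, superoxide dismutases, peroxiredoxins and glutathione enzymes remove. Of 29 antioxidant genes 9 rose (31.0%, against 7.74% of all genes tested) and 0 fell, and the median log2 change was 0.88. Without replicate 2 of either time, which leaves the fold to replicate 1, 15 rose and 1 fell. NCU09534, a peroxiredoxin of the HYR1 type, had 659.6 and 581 FPKM at 60 min, against 64.1 and 69.7 FPKM in the dark (log2 change 3.19, standard error 0.10, adjusted p = 2.3e-06, limma). *cat-1* (NCU08791), the catalase of conidia, had 493 and 302 FPKM at 60 min, against 69.3 and 44.3 FPKM in the dark (log2 change 2.78, standard error 0.08, adjusted p = 1.5e-06, limma). The other 2 catalase genes changed less. *cat-2* (NCU05770), a catalase-peroxidase gene, had 32.8 and 19.3 FPKM at 60 min, against 11.0 and 6.63 FPKM in the dark (log2 change 1.45, standard error 0.08, adjusted p = 1.4e-05, limma, and adjusted p = 0.057 without the replicate block), and *cat-3* (NCU00355), the catalase of growing hyphae, had 18.3 and 15.7 FPKM at 60 min, against 6.92 and 6.36 FPKM in the dark (log2 change 1.23, standard error 0.08, adjusted p = 3.7e-05, limma).

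The remaining 5 were *sod-2* (NCU01213), for the mitochondrial superoxide dismutase (log2 change 1.23), the glutaredoxins NCU01219 (1.31) and NCU11494 (1.47), and the glutathione S-transferases *wal-2* (NCU04368, 1.41) and NCU05706 (1.50). Their adjusted p from limma lay between 1.5e-05 and 2.7e-04. With the samples scaled to an equal sum 2 members of the list rose and 4 fell, though the median stayed above 0, at 0.29.

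Of 27 DNA repair genes 3 rose (11.1%, near the 7.74% of all genes tested) and 0 fell, while the median of the list was -0.31. Without replicate 2 of either time 2 fell. The 3 included 2 genes whose products act on UV damage itself. *phr* (NCU08626), for the photolyase that splits pyrimidine dimers with light, had 116 and 63.6 FPKM at 60 min, against 6.49 and 3.07 FPKM in the dark (log2 change 3.97, standard error 0.09, adjusted p = 5.2e-07, limma). *mus-18* (NCU08850), for an endonuclease that nicks DNA at UV damage, had 20.9 and 14.2 FPKM at 60 min, against 1.52 and 1.13 FPKM in the dark (log2 change 2.98, standard error 0.13, adjusted p = 7.9e-06, limma). *mus-8* (NCU09731), for a ubiquitin-conjugating enzyme of post-replication repair, had 76.1 and 79.9 FPKM at 60 min, against 32.6 and 34.5 FPKM in the dark (log2 change 1.19, standard error 0.08, adjusted p = 2.9e-05, limma). *phr* and *mus-18*, picked as past 2-fold in both replicates, had no overlap between groups, and *mus-8* was alike in the 2 replicates.

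Of 19 chaperone genes 2 rose (10.5%) and 3 fell (15.8%), against 7.74% and 6.76% of all genes tested, and the other 14 did neither. NCU07232, annotated as heat shock protein 30, a small heat shock protein, had 3058 and 2595 FPKM at 60 min, against 359.9 and 226 FPKM in the dark (log2 change 3.30, standard error 0.13, adjusted p = 5.1e-06, limma), and NCU09420 of the hsp20 family had 291 and 203 FPKM at 60 min, against 67.9 and 54.8 FPKM in the dark (log2 change 1.98, standard error 0.09, adjusted p = 7.6e-06, limma). The 3 that fell were *hsp88* (NCU05269), *hsp70-4* (NCU00692) and the cochaperone gene NCU10273, with log2 changes of -1.30, -1.28 and -1.23. *hsp70-2* (NCU02075), an abundant Hsp70 gene, had 664 and 367 FPKM at 60 min, against 1132 and 649 FPKM in the dark, one of the 5 largest losses of FPKM, without reaching 2-fold (log2 change -0.80, standard error 0.09, adjusted p = 3.3e-04, limma, and adjusted p = 0.31 without the replicate block and 0.090 with all 10 samples). The count that fell was 1 without the replicate block, 5 without replicate 2 of either time and 6 with quantile normalization, and with all 10 samples 0 rose.

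Some very abundant genes had large gains in FPKM and modest ratios. NCU06110, annotated as the thiazole biosynthetic enzyme of the thiamine pathway and the most abundant gene at 60 min, had 49016 and 51635 FPKM at 60 min, against 32086 and 27549 FPKM in the dark. Its ratios were 1.53 and 1.87 (log2 change 0.76, standard error 0.24, adjusted p = 0.027, limma, and 0.12 without the replicate block), and with an equal sum its log2 change was 0.16. *emp-7* (NCU10042), for the glycolytic enzyme enolase, had 18806 and 15204 FPKM at 60 min, against 11251 and 9704 FPKM in the dark (log2 change 0.69, standard error 0.18, adjusted p = 0.012, limma, 0.15 without the block and a log2 change of 0.10 with an equal sum). Neither reached 2-fold, and neither call held under these alternatives. The call of NCU06110 was also lost without either 60 min sample or any 1 sample at 15 or 120 min (adjusted p = 0.072 to 0.18), and that of *emp-7* without either 60 min sample or replicate 2 at 15 min (0.051 to 0.071).

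Of the 5 largest gains, 3 passed both criteria and stayed higher with an equal sum. These were *ccg-1*, described above (2.36 with an equal sum), *ncw-3* and *ccg-13*. *ncw-3* (NCU07817), for a cell wall protein that is not anchored to the membrane, had 14252 and 11448 FPKM at 60 min, against 3085 and 3105 FPKM in the dark (log2 change 2.04, standard error 0.17, adjusted p = 8.1e-05, limma). *ccg-13* (NCU08907), a clock-controlled gene with a BYS1 domain, had 13455 and 10241 FPKM at 60 min, against 3468 and 1991 FPKM in the dark (log2 change 2.16, standard error 0.22, adjusted p = 2.1e-04, limma). With *ccg-1*, all 3 were at 10241 FPKM or more in both 60 min samples and at 3468 FPKM or less in both dark samples.

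Among 17 cell wall protein genes 4 rose (23.5%, against 7.74% of all genes tested) and 0 fell, but 2 rose with quantile normalization and 1 with all 10 samples. Beside *ncw-3* these were *ncw-6* (NCU00586), with 139 and 198 FPKM at 60 min, against 11.4 and 16.8 FPKM in the dark (log2 change 3.49, standard error 0.14, adjusted p = 5.2e-06, limma), *ncw-5* (NCU00716), with 935 and 1272 FPKM at 60 min, against 154 and 169.9 FPKM in the dark (log2 change 2.74, standard error 0.10, adjusted p = 4.3e-06, limma), and *acw-6* (NCU03530), with 208 and 306 FPKM at 60 min, against 98.9 and 96.6 FPKM in the dark (log2 change 1.36, standard error 0.19, adjusted p = 7.3e-04, limma). The median of the list was 0.37 and turned to -0.33 with quantile normalization and -0.23 with an equal sum. Of 22 expressed genes for enzymes of chitin and glucan 3 rose (13.6%) and 1 fell (4.55%), against 7.74% and 6.76% of all genes tested. With all 10 samples 1 rose and 0 fell, and without replicate 2 of either time 2 fell. The 2 chitinase genes *gh18-7* (NCU06020) and *gh18-5* (NCU04554) had log2 changes of 1.82 and 1.30, the glucanosyltransferase gene *gh72-4* (NCU07253) had 1.48, and *gh16-6* (NCU05789) had -1.10.

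Few genes of the basic energy and protein machinery reached 2-fold in both replicates. Of 76 genes for cytoplasmic ribosomal proteins 40 were higher by the adjusted p alone, and the median log2 change was 0.50. By both criteria 1 rose (1.32%) and 2 fell (2.63%), against 7.74% and 6.76% of all genes tested. This count rests on replicate 2, since 17 rose without dark replicate 2 and 15 without 60 min replicate 2, where replicate 1 alone sets the fold. Their summed level was 224662 and 308922 FPKM at 60 min, against 132142 and 253028 FPKM in the dark. As a share of the sum of all genes this was 23.8% and 30.6% at 60 min, against 23.2% and 34.7% in the dark, so the share was higher at 60 min in replicate 1 and lower in replicate 2. The gene that rose was *crp-73* (NCU06048), for ribosomal protein S30, with 1368 and 1296 FPKM at 60 min, against 429 and 566 FPKM in the dark (log2 change 1.43, standard error 0.14, adjusted p = 1.4e-04, limma). The 2 that fell, *crp-42* (NCU02477, -1.65) and *crp-84* (NCU05235, -1.56), are annotated as the ribosome assembly factors Sqt1 and RLP24 and not as parts of the ribosome.

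The 12 genes of glycolysis and fermentation (median 0.55), the 45 of the respiratory chain and ATP synthase (0.33) and the 7 histone genes (0.315) had 0 members that rose or fell, but 3 of the respiratory chain rose without replicate 2 of either time. Their medians turned to between -0.32 and -0.05 with quantile normalization or an equal sum, as did that of the ribosomal proteins (-0.18 and -0.10). The 16 genes of the TCA cycle (median -0.21) also had 0 of each, but 1 fell without replicate 1 of either time and 2 without replicate 2. The 59 genes of mitochondrial ribosomal proteins had 0 up and 3 down (5.08%, against 6.76% of all genes tested, median -0.30). The count that rose moved when replicate 2 of either time was left out. Median scaling turned the medians of the TCA cycle, the glyoxylate cycle and gluconeogenesis, the chaperones, the proteasome and amino acid synthesis from between -0.21 and -0.035 to between 0.013 and 0.177. An equal sum turned those of the enzymes of chitin and glucan, trehalose, glycogen and polyols, and sexual development to between -0.49 and -0.27. Quantile normalization also turned those of the enzymes of chitin and glucan (-0.211) and of trehalose, glycogen and polyols (-0.107).

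**Figure D4:**
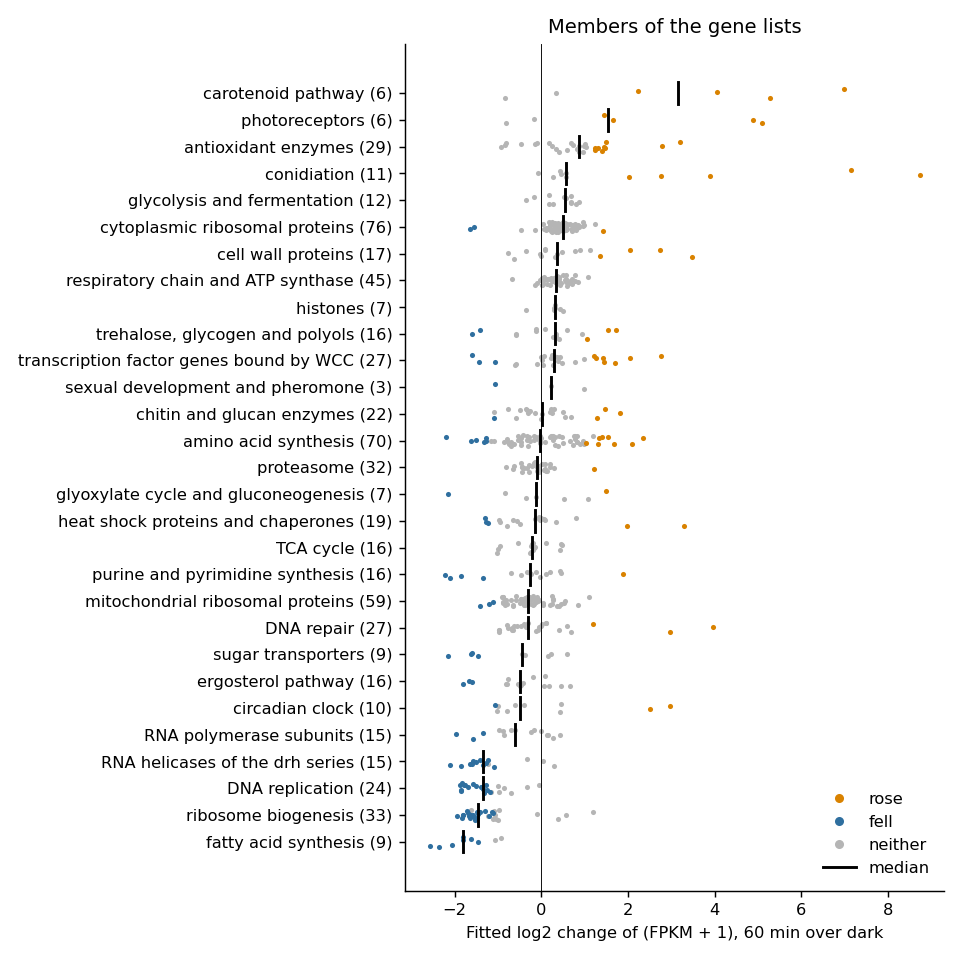
Fitted log2 change of FPKM plus 1 of every expressed member of the gene lists, 1 point per gene, with the number of members tested in brackets, the median as a black bar and colours for genes that rose (orange), fell (blue) or did neither (grey). The carotenoid list has the highest median (3.15), and fatty acid synthesis (-1.80), ribosome biogenesis (-1.46), DNA replication (-1.35) and the RNA helicases (-1.35) the lowest.

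Fatty acid synthesis was lower as a whole. The pathway makes cytosolic acetyl-CoA with ATP citrate lyase, turns it to malonyl-CoA with acetyl-CoA carboxylase, builds the chain on fatty acid synthase and then elongates and desaturates it. Of 9 genes 7 fell (77.8%, against 6.76% of all genes tested) and 0 rose, and the median log2 change was -1.80. The 2 subunits of fatty acid synthase are encoded by neighbours. *cel-2* (NCU07307) had 6.62 and 3.24 FPKM at 60 min, against 50.8 and 21.2 FPKM in the dark, or 0.130 and 0.153 times the dark level (log2 change -2.58, standard error 0.13, adjusted p = 1.2e-05, limma). *cel-1* (NCU07308) had 7.29 and 3.42 FPKM at 60 min, against 48.2 and 18.9 FPKM in the dark, or 0.151 and 0.181 times the dark level (log2 change -2.37, standard error 0.12, adjusted p = 1.2e-05, limma). In both, replicate 2 was lower than replicate 1 in light and in dark, but the 60 min values lay below both dark values.

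Upstream, the ATP citrate lyase genes NCU06785 and NCU06783 had 29.3 and 23.7 FPKM at 60 min, against 129 and 97.5 FPKM in the dark (log2 change -2.05, standard error 0.08, adjusted p = 5.1e-06, limma) and 72.2 and 53.8 FPKM at 60 min, against 208 and 146 FPKM in the dark (log2 change -1.47, standard error 0.09, adjusted p = 2.2e-05, limma). NCU08535, for acetyl-CoA carboxylase, had 1.93 and 0.995 FPKM at 60 min, against 10.2 and 5.41 FPKM in the dark (log2 change -1.81, standard error 0.13, adjusted p = 4.7e-05, limma). Downstream, the elongase gene NCU08976 had 11.4 and 13.1 FPKM at 60 min, against 37.8 and 41.5 FPKM in the dark (log2 change -1.62, standard error 0.12, adjusted p = 5.1e-05, limma). The desaturase gene NCU09497 had 13.3 and 16.1 FPKM at 60 min, against 55.8 and 51.7 FPKM in the dark (log2 change -1.80, standard error 0.11, adjusted p = 2.3e-05, limma).

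The other 2 desaturases fell short of 2-fold in 1 or both replicates. *ods* (NCU02209) had 62.0 and 54.5 FPKM at 60 min, against 153 and 99.0 FPKM in the dark (log2 change -1.07, standard error 0.12, adjusted p = 2.8e-04, limma, and 0.052 without the replicate block), and NCU05259 had 116 and 88.3 FPKM at 60 min, against 221 and 172 FPKM in the dark (log2 change -0.94, standard error 0.07, adjusted p = 6.8e-05, limma, and 0.054 without the block). All 9 genes were lower than in the dark in both replicates.

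Sterol synthesis, which uses the same acetyl-CoA, had 3 of 16 genes down (18.8%, against 6.76% of all genes tested) and 0 up, with a median of -0.48. With all 10 samples 1 fell. *erg-14* (NCU00712), for HMG-CoA reductase, the committed step, had 11.5 and 8.28 FPKM at 60 min, against 38.2 and 26.3 FPKM in the dark (log2 change -1.61, standard error 0.08, adjusted p = 1.2e-05, limma). *erg-6* (NCU06054), annotated as squalene synthetase, had 5.72 and 3.07 FPKM at 60 min, against 20.4 and 11.9 FPKM in the dark (log2 change -1.67, standard error 0.09, adjusted p = 1.7e-05, limma, and adjusted p = 0.053 without the replicate block). *erg-4* (NCU03006), annotated as a sterol 24-C-methyltransferase, had 14.1 and 11.4 FPKM at 60 min, against 39.8 and 54.7 FPKM in the dark (log2 change -1.80, standard error 0.17, adjusted p = 1.3e-04, limma).

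Genes of DNA replication fell together. Of 24 genes 17 fell (70.8%, against 6.76% of all genes tested) and 0 rose, the median was -1.35, and their summed level was 218 and 185 FPKM at 60 min, against 443 and 372 FPKM in the dark. For the MCM helicase that unwinds origins, *drl-1* (NCU04327, *mcm2*) had 2.42 and 1.48 FPKM at 60 min, against 11.2 and 7.99 FPKM in the dark (log2 change -1.84, standard error 0.10, adjusted p = 1.3e-05, limma), and *drl-2*, *drl-3*, *drl-4* and *cdc47*, the genes of *mcm3*, *mcm5*, *mcm6* and *mcm7*, had log2 changes between -1.84 and -1.36. For priming, *dnp-2* (NCU04646) and *dnp-1* (NCU02232), the primase subunits, had log2 changes of -1.88 and -1.76, and *pola-1* (NCU07870), the catalytic subunit of polymerase alpha, had -1.58. For the supply of deoxynucleotides, *un-24* (NCU03539), the large subunit of ribonucleotide reductase, had 12.1 and 8.90 FPKM at 60 min, against 36.9 and 21.8 FPKM in the dark (log2 change -1.37, standard error 0.11, adjusted p = 6.0e-05, limma, and adjusted p = 0.056 without the replicate block), and *pyr-8* (NCU10053), thymidylate synthase, had 5.61 and 6.52 FPKM at 60 min, against 15.5 and 18.5 FPKM in the dark (log2 change -1.35, standard error 0.11, adjusted p = 8.9e-05, limma). The other members that fell were *rpa-1*, *cdc45*, *drc-4*, *pold-1*, *pola-2*, *dnt-2* and *dtn-1*. These are low levels, and with 5 in place of 1 added to FPKM, which shrinks the change of low genes, 4 of the list fell, and 14 fell without the replicate block.

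Ribosomes are assembled in the nucleolus, where rRNA is transcribed by RNA polymerase I, modified, cut and joined with proteins. Of 33 ribosome biogenesis genes 21 fell (63.6%, against 6.76% of all genes tested) and 0 rose, with a median of -1.46 and a summed level of 251 and 213 FPKM at 60 min, against 621 and 540.0 FPKM in the dark. Without the replicate block 15 fell, and without replicate 1 of either time 1 rose. Genes for 3 core proteins of the box C/D particles that methylate rRNA fell. *rbg-16* (NCU03702), for fibrillarin, had 27.5 and 24.3 FPKM at 60 min, against 76.5 and 87.8 FPKM in the dark (log2 change -1.63, standard error 0.11, adjusted p = 3.1e-05, limma). *rbg-17* (NCU06943), annotated as SIK1, had 17.1 and 15.5 FPKM at 60 min, against 57.5 and 54.4 FPKM in the dark (log2 change -1.72, standard error 0.07, adjusted p = 7.2e-06, limma), and *rbg-18* (NCU03396), for Nop58, had 19.8 and 10.5 FPKM at 60 min, against 73.6 and 46.8 FPKM in the dark (log2 change -1.95, standard error 0.08, adjusted p = 7.0e-06, limma). *rbg-5* (NCU00336), for the U3-associated protein 10, had 1.02 and 0.504 FPKM at 60 min, against 7.93 and 3.23 FPKM in the dark (log2 change -1.82, standard error 0.17, adjusted p = 1.3e-04, limma).

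Of 15 genes of the *drh* series of RNA helicases, most of them annotated after yeast helicases, 11 fell (73.3%, against 6.76% of all genes tested) and 0 rose (median -1.35). *drh-11* (NCU11175), annotated as *drs-1*, had the largest fall, to 1.73 and 0.862 FPKM at 60 min, against 11.3 and 6.72 FPKM in the dark (log2 change -2.11, standard error 0.17, adjusted p = 6.6e-05, limma). The most abundant that fell, *drh-1* (NCU07839), had 25.3 and 19.8 FPKM at 60 min, against 56.0 and 43.0 FPKM in the dark (log2 change -1.10, standard error 0.08, adjusted p = 5.4e-05, limma). By the adjusted p alone 13 of the 15 were lower and 1 was higher. Of the 4 helicases that neither rose nor fell, *drh-4*, *drh-9* and *drh-12* had log2 changes of 0.03, -0.33 and 0.29. These are annotated after Dbp5, Ded1 and eIF4A, which act in mRNA export and translation in yeast. Not all 4 are named here, and a division of the helicases by function was not tested. With 5 added to FPKM, 5 biogenesis genes and 2 helicase genes fell. The count of RNA polymerase subunits that fell moved when replicate 2 of either time was left out. Of 15 subunits 3 fell (20.0%, against 6.76% of all genes tested) and 0 rose. These were *rpo-18* (NCU01638), the largest subunit of RNA polymerase I, which transcribes rRNA (2.82 and 1.49 FPKM at 60 min, against 15.5 and 7.78 FPKM in the dark, log2 change -1.97, standard error 0.14, adjusted p = 3.8e-05, limma), *rpo-13* (NCU02533), shared by polymerases I and III (-1.56), and *rpo-11* (NCU03986), the largest subunit of polymerase III (-1.34).

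The 12 largest falls were of genes for transport, modification and synthesis, and of genes without a known function. *pho-7* (NCU07375), a phosphate transporter gene and the largest fall, had 5.24 and 4.27 FPKM at 60 min, against 38.0 and 32.3 FPKM in the dark, or 0.138 and 0.132 times the dark level (log2 change -2.65, standard error 0.08, adjusted p = 2.2e-06, limma). *prm-1* (NCU07459), for a protein arginine methyltransferase, had 4.61 and 3.26 FPKM at 60 min, against 34.9 and 20.4 FPKM in the dark (log2 change -2.50, standard error 0.11, adjusted p = 8.4e-06, limma). NCU05650, for the karyopherin Kap123, which imports ribosomal proteins into the nucleus in yeast, had 3.63 and 2.27 FPKM at 60 min, against 25.9 and 13.6 FPKM in the dark (log2 change -2.35, standard error 0.16, adjusted p = 3.7e-05, limma). *spe-2* (NCU01083), for S-adenosylmethionine decarboxylase of polyamine synthesis, had 3.83 and 2.52 FPKM at 60 min, against 22.6 and 18.0 FPKM in the dark (log2 change -2.36, standard error 0.11, adjusted p = 1.1e-05, limma). In each the FPKM was more than 4-fold below its dark sample in both replicates.

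*msp-4* (NCU00361), annotated as a splicing factor, had 1.53 and 2.22 FPKM at 60 min, against 21.1 and 10.8 FPKM in the dark, and its replicates differed more in size (log2 change -2.50, standard error 0.30, adjusted p = 3.8e-04, limma). Of the genes without a function, NCU09823 had 3.86 and 2.24 FPKM at 60 min, against 30.2 and 14.7 FPKM in the dark (log2 change -2.48, standard error 0.13, adjusted p = 1.4e-05, limma), NCU09506 had 14.2 and 10.2 FPKM at 60 min, against 69.7 and 66.5 FPKM in the dark (log2 change -2.41, standard error 0.15, adjusted p = 2.6e-05, limma) and NCU07942 had 1.70 and 1.89 FPKM at 60 min, against 11.8 and 11.9 FPKM in the dark (log2 change -2.20, standard error 0.10, adjusted p = 9.7e-06, limma). With *cel-1*, *cel-2*, *pyr-3* and *leu-2* these make up the 12.

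Nucleotide synthesis had 4 of 16 genes down (25.0%) and 1 up (6.25%), against 6.76% and 7.74% of all genes tested. *pyr-3* (NCU08287), for the enzyme that begins pyrimidine synthesis, had 12.5 and 6.57 FPKM at 60 min, against 72.5 and 29.7 FPKM in the dark (log2 change -2.23, standard error 0.11, adjusted p = 1.3e-05, limma, and adjusted p = 0.058 without the replicate block, which ends the call). *pyr-4* (NCU03488), for orotidine 5′-phosphate decarboxylase, had 48.4 and 30.7 FPKM at 60 min, against 209 and 135 FPKM in the dark (log2 change -2.10, standard error 0.08, adjusted p = 3.6e-06, limma). *ad-7* (NCU04216), for the amidotransferase that begins purine synthesis, had 4.03 and 2.16 FPKM at 60 min, against 16.7 and 10.8 FPKM in the dark (log2 change -1.86, standard error 0.12, adjusted p = 3.0e-05, limma). Against these, *ad-5* (NCU02629), annotated as a bifunctional purine biosynthesis gene, rose to 535 and 390.3 FPKM at 60 min, against 139 and 109 FPKM in the dark (log2 change 1.89, standard error 0.09, adjusted p = 1.1e-05, limma). The fourth that fell was *pyr-8*, given above. The first and the last step of UMP synthesis were thus lower together, whereas purine genes went both ways.

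Of 70 expressed genes of amino acid synthesis 8 rose (11.4%) and 6 fell (8.57%), near the 7.74% and 6.76% of all genes tested. Of the histidine and tryptophan branches, *his-6* (NCU07156) had 342 and 311 FPKM at 60 min, against 82.8 and 69.7 FPKM in the dark (log2 change 2.09, standard error 0.10, adjusted p = 1.2e-05, limma), *trp-3* (NCU08409), tryptophan synthetase, had 257 and 188 FPKM at 60 min, against 86.9 and 64.7 FPKM in the dark (log2 change 1.54, standard error 0.08, adjusted p = 1.4e-05, limma), and *his-5* (NCU06360) and *trp-2* (NCU05129) had log2 changes of 1.31 and 1.02. Of the arginine branch, *arg-12* (NCU01667), for ornithine carbamoyltransferase, had 217 and 126 FPKM at 60 min, against 43.7 and 23.1 FPKM in the dark (log2 change 2.35, standard error 0.14, adjusted p = 2.0e-05, limma), and *arg-5* (NCU05410) had a log2 change of 1.40. *thr-5* (NCU00944, 1.34, annotated as a threonine aldolase) and *ilv-5* (NCU02397, 1.68, annotated as a pyruvate decarboxylase) also rose.

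The 6 genes of the list that fell follow. *leu-2* (NCU04385), annotated as 3-isopropylmalate dehydratase of leucine synthesis, had 11.8 and 10.9 FPKM at 60 min, against 64.2 and 47.5 FPKM in the dark (log2 change -2.19, standard error 0.10, adjusted p = 9.5e-06, limma). *ilv-2* (NCU03608), for ketol-acid reductoisomerase of valine and isoleucine synthesis, had 194 and 169 FPKM at 60 min, against 469.8 and 442 FPKM in the dark (log2 change -1.33, standard error 0.08, adjusted p = 2.4e-05, limma). In sulfur assimilation *cys-4* (NCU05238), annotated as the sulfite reductase beta subunit, and *cys-14* (NCU04433), a sulfate permease gene, had log2 changes of -1.63 and -1.28. *lys-6* (NCU08898), annotated as homoaconitase of lysine synthesis, and *met-13* (NCU09545), a methylenetetrahydrofolate reductase gene, had -1.28 and -1.50. Under median scaling 14 members of the list rose and 5 fell, with quantile normalization 3 rose and 10 fell, and with an equal sum 3 rose and 16 fell.

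Genes of both enzymes that fix ammonium had lower values. *am-1* (NCU01195), for NADP-dependent glutamate dehydrogenase, had 162 and 127 FPKM at 60 min, against 535 and 505 FPKM in the dark (log2 change -1.85, standard error 0.09, adjusted p = 1.3e-05, limma). *gln-2* (NCU04856), a glutamine synthetase gene, had 776 and 688 FPKM at 60 min, against 1211 and 1559 FPKM in the dark, the largest loss of FPKM of any gene with an adjusted p of 0.05 or less, and passed 2-fold in replicate 2 alone (log2 change -0.91, standard error 0.15, adjusted p = 0.0016, limma, and adjusted p = 0.26 with all 10 samples). Of the 5 largest losses among such genes, the others not yet given were *pma-1* (NCU01680), for the plasma membrane proton pump, with 1050.4 and 527 FPKM at 60 min, against 1483 and 723 FPKM in the dark (log2 change -0.48, standard error 0.10, adjusted p = 0.0042, limma), and NCU04276, with 1102 and 1544 FPKM at 60 min, against 1648 and 1720.5 FPKM in the dark (log2 change -0.37, standard error 0.13, adjusted p = 0.044, limma). Without the replicate block neither of these 2 kept its call (adjusted p = 0.62 and 0.38), and that of NCU04276 was kept only where dark replicate 2 was the library left out.

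In carbon metabolism, 20 sugar transporter genes were listed and 9 expressed, of which 4 fell (44.4%, against 6.76% of all genes tested) and 0 rose. With 5 in place of 1 added to FPKM 2 fell, and 2 fell among those with mean FPKM above 10. NCU04963, annotated as a high-affinity glucose transporter, had 3.93 and 1.96 FPKM at 60 min, against 18.8 and 13.4 FPKM in the dark (log2 change -2.15, standard error 0.11, adjusted p = 1.2e-05, limma), and NCU05627, annotated likewise, had 8.92 and 6.05 FPKM at 60 min, against 27.3 and 21.5 FPKM in the dark (log2 change -1.60, standard error 0.09, adjusted p = 1.5e-05, limma). *hgt-1* (NCU10021) and NCU00821 were at 0.820 to 1.10 FPKM at 60 min, against 4.00 to 5.25 FPKM in the dark, with log2 changes of -1.46 and -1.61.

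Of 7 genes of the glyoxylate cycle and gluconeogenesis 1 rose and 1 fell (14.3% each, against 7.74% and 6.76% of all genes tested). The count that rose was 2 without replicate 1 of either time and 0 with all 10 samples. *acu-3* (NCU04230), for isocitrate lyase, the first enzyme of the glyoxylate bypass, had 38.8 and 51.7 FPKM at 60 min, against 13.2 and 17.6 FPKM in the dark (log2 change 1.49, standard error 0.10, adjusted p = 3.0e-05, limma), and *acu-9* (NCU10007), for malate synthase, the second, had 20.1 and 21.4 FPKM at 60 min, against 10.4 and 8.30 FPKM in the dark and was short of 2-fold in replicate 1 (log2 change 1.08, standard error 0.11, adjusted p = 1.8e-04, limma, and adjusted p = 0.15 with all 10 samples). *acu-6* (NCU09873), for phosphoenolpyruvate carboxykinase, which begins gluconeogenesis, had 23.8 and 20.5 FPKM at 60 min, against 113 and 91.1 FPKM in the dark (log2 change -2.15, standard error 0.09, adjusted p = 6.5e-06, limma). *acu-3* and *acu-6* thus moved in opposite directions, each in both replicates.

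*acu-5* (NCU06836), for acetyl-CoA synthetase, had a log2 change of -0.84, *acu-8* (NCU09770), annotated as acetyl-CoA hydrolase, -0.12, *fbp-1* (NCU04797), for fructose bisphosphatase, -0.35, and *acu-17* (NCU09255) 0.53, or -0.04 with an equal sum. Among 16 expressed genes of trehalose, glycogen and polyols 3 rose (18.8%) and 2 fell (12.5%), against 7.74% and 6.76% of all genes tested. *gsy-1* (NCU06687), for glycogen synthase, had 21.0 and 15.6 FPKM at 60 min, against 53.6 and 46.7 FPKM in the dark (log2 change -1.42, standard error 0.09, adjusted p = 3.2e-05, limma). *gcy-1* (NCU04923), annotated as the glycerol dehydrogenase Gld1, had 76.0 and 58.2 FPKM at 60 min, against 241 and 170.5 FPKM in the dark (log2 change -1.59, standard error 0.10, adjusted p = 2.2e-05, limma). *gcy-3* (NCU04510) and NCU01233, both annotated as aldose reductases, and the trehalase gene *tre-2* (NCU04221) rose, with log2 changes of 1.54, 1.72 and 1.06. With an equal sum 0 members of this list rose, and without the replicate block 1 did.

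A further list holds transcription factor genes bound by the WCC in light. Of the 27, 7 rose (25.9%) and 3 fell (11.1%) at 60 min, against 7.74% and 6.76% of all genes tested. The median was 0.285, or -0.295 with an equal sum. Besides *vos-1* and *wc-1*, *sah-1* (NCU04179) had 53.1 and 42.5 FPKM at 60 min, against 10.9 and 10.63 FPKM in the dark (log2 change 2.05, standard error 0.09, adjusted p = 7.9e-06, limma), and NCU09615, NCU03273, NCU04295 and NCU00275 had log2 changes of 1.70, 1.42, 1.26 and 1.21. The 3 that fell were *adv-1*, NCU05994, annotated as TamA, with 4.22 and 2.19 FPKM at 60 min, against 13.9 and 7.14 FPKM in the dark (log2 change -1.43, standard error 0.11, adjusted p = 4.9e-05, limma, and adjusted p = 0.083 without the replicate block), and NCU07846, with 5.59 and 7.24 FPKM at 60 min, against 19.6 and 23.0 FPKM in the dark (log2 change -1.59, standard error 0.08, adjusted p = 1.4e-05, limma). Without the replicate block 3 of the list rose and 2 fell, and with 5 added to FPKM 2 rose and 1 fell. *rpn-4* (NCU01640), a transcription factor of proteasome genes in yeast, was the 1 gene of 32 in the proteasome list that rose (93.7 and 43.5 FPKM at 60 min, against 43.9 and 16.5 FPKM in the dark, log2 change 1.21, standard error 0.11, adjusted p = 1.2e-04, limma), and its call was lost without the block (adjusted p = 0.32).

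The 60 min level of a gene can be set beside its level at 15 and 120 min, which share the dark samples of this comparison. *al-3* had 94.1 and 95.4 FPKM at 15 min, 24.6 and 26.6 at 60 min and 8.003 and 8.61 at 120 min, and *vvd* had 537 and 293 FPKM at 15 min, 191 and 104 at 60 min and 90.7 and 45.1 at 120 min, so both were highest at 15 min in each replicate. Differences between the light times were not tested. *con-6* had 526 and 682 FPKM at 15 min, 3408 and 3456 at 60 min and 2262 and 1358 at 120 min, and *bli-3* had 525 and 487 FPKM at 15 min, 2578 and 2062 at 60 min and 651 and 433 at 120 min, with their highest values at 60 min in both. *ccg-1* had 3692 and 4353 FPKM at 15 min, 22070.2 and 19299 at 60 min and 21059 and 16639.8 at 120 min, and its 60 and 120 min values overlap. Of the genes that fell, *cel-2* had 40.7 and 18.1 FPKM at 15 min, 6.62 and 3.24 at 60 min and 5.47 and 2.75 at 120 min, and *drl-1* had 8.25 and 5.56 FPKM at 15 min, 2.42 and 1.48 at 60 min and 2.23 and 1.49 at 120 min. For both, the 60 and 120 min values were close in the same replicate. *csp-1* had 389.7 and 330.4 FPKM at 15 min, 62.4 and 49.3 at 60 min and 44.7 and 33.8 at 120 min, so its 60 min values were well below its 15 min values.

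**Figure D5:**
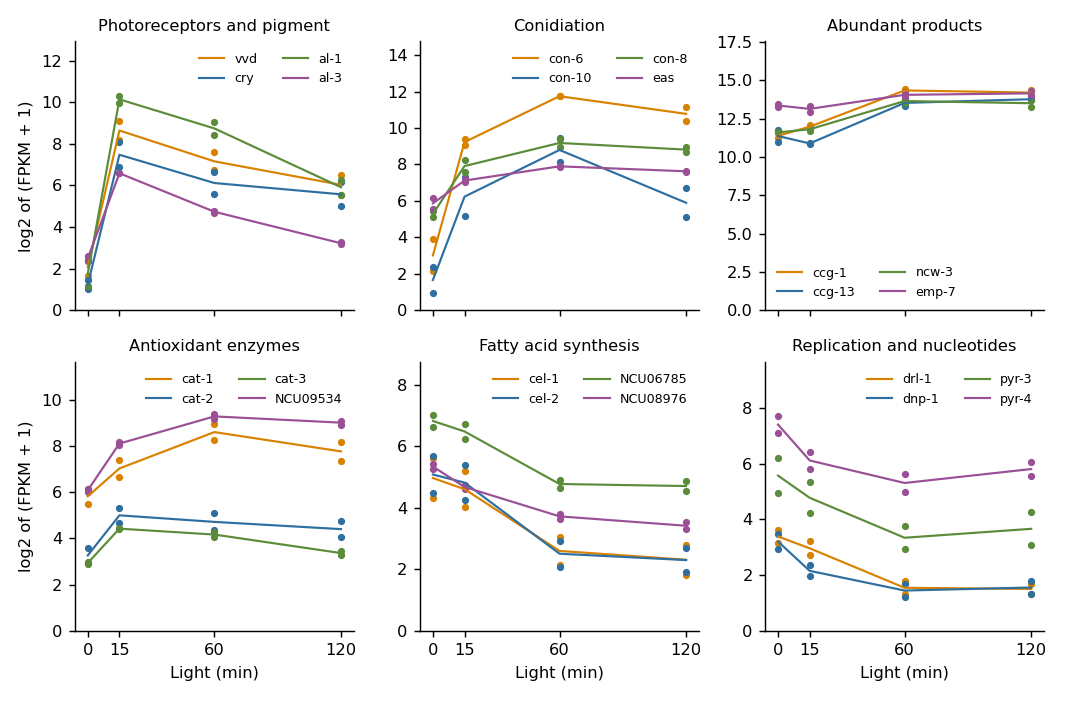
Log2 of FPKM plus 1 in the dark (0 min) and at 15, 60 and 120 min of light for 4 genes in each of 6 groups, with a point per replicate and a line through their mean. *vvd*, *cry*, *al-1* and *al-3* are highest at 15 min, *con-6*, *con-10* and *con-8* at 60 min, and the fatty acid synthesis genes are at similar low levels at 60 and 120 min.

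Some genes that rose or fell stood next to each other. In the RefSeq order of assembly NC12, 6275 pairs of neighbours were both expressed. Both members rose in 79 pairs (1.26%), both fell in 51 (0.813%), and 1 rose while the other fell in 43 (0.685%). At least 1 member rose in 850 pairs (13.5%) and fell in 797 (12.7%). The longest run that rose held NCU01058, *gh47-3* (NCU01059), NCU01060 and NCU01061, of which NCU01060 had 1249 and 1369.7 FPKM at 60 min, against 39.7 and 46.6 FPKM in the dark (log2 change 4.89, standard error 0.10, adjusted p = 5.0e-07, limma). *al-2* stood between *ncw-6* and NCU00584, and NCU00584, named after its values were seen, had 122 and 113 FPKM at 60 min, against 21.3 and 22.0 FPKM in the dark (log2 change 2.39, standard error 0.09, adjusted p = 5.1e-06, limma).

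The longest run that fell held NCU11406, *gh71-3* (NCU11405), NCU09506, NCU09505 and NCU09504. NCU09505 had 22.3 and 18.5 FPKM at 60 min, against 69.3 and 72.4 FPKM in the dark (log2 change -1.75, standard error 0.10, adjusted p = 1.7e-05, limma), and NCU09504 had 11.4 and 5.33 FPKM at 60 min, against 39.7 and 22.7 FPKM in the dark (log2 change -1.81, standard error 0.10, adjusted p = 1.5e-05, limma). A second run held NCU07736, NCU09823, NCU09824 and NCU09825. Strand and shared promoters were not examined. Of the expressed loci, 96 carry the same FPKM as another locus in all 10 samples, among them 10 of those that rose and 8 of those that fell, and pairs of neighbours with the same FPKM were left out of the counts.

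The replicates agreed least for a few genes. *con-6* is the first, as given above. NCU01957 had 107 and 63.6 FPKM at 60 min, against 17.1 and 55.3 FPKM in the dark, a rise in replicate 1 and almost none in replicate 2, and did not pass the test (limma, adjusted p = 0.11). NCU01647, annotated as the GTP-binding protein ypt4, had 50.4 and 55.6 FPKM at 60 min, against 1.43 and 11.4 FPKM in the dark (log2 change 3.30, standard error 0.47, adjusted p = 8.2e-04, limma). NCU02461 had 8.84 and 36.1 FPKM at 60 min, against 0.579 and 19.5 FPKM in the dark and NCU11876 had 7.64 and 38.0 FPKM at 60 min, against 1.04 and 1.91 FPKM in the dark. As a ratio between replicates, the dark samples differed more than the 60 min samples in NCU01647 and NCU02461. In NCU11876 the 60 min samples differed more.

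The calls by adjusted p of some genes given above as risen or fallen depended on the fit. With all 10 samples in it, those at 240 min included, 36 of 167 calls were lost, those named here at adjusted p = 0.056 to 0.44 (limma). Among genes that rose these were *ncw-3*, *ncw-5*, *ncw-6*, *gh18-5*, *gh18-7*, *ccg-13*, *con-8*, *nop-1*, NCU07232, NCU09420, *cat-2*, *rpn-4*, *acu-3*, *crp-73*, *his-5*, *trp-2*, *arg-5*, *thr-5*, *ilv-5*, *tre-2*, NCU01233, NCU03273, NCU04295 and NCU01647. Among genes that fell they were *erg-4*, *erg-6*, *rbg-18*, *crp-84*, *ilv-2*, *cys-14*, *gsy-1* and *gh16-6*. Without the replicate block, calls were lost for *frq*, *wc-1*, *rpn-4*, *cat-2*, *pyr-3*, *erg-6*, *un-24* and NCU05994, as given above, and for *pold-1*, *dtn-1*, *rpo-11*, *hsp88*, NCU10273, *ilv-5*, *tre-2*, *gh18-5*, NCU01233, NCU03273, NCU04295, NCU09615 and NCU11876 (adjusted p = 0.055 to 0.27). Of the members counted but not named, *rbg-3*, *rbg-11*, *rbg-19* and *mrp-20* lost theirs with all 10 samples, and *rbg-3*, *rbg-11*, *rbg-19*, *rbg-25*, *rbg-32*, *rbg-42*, *mrp-29* and *drh-8* without the block (adjusted p = 0.056 to 0.19). Over the 167 genes that rose or fell and were followed, all of the lists or the rule for named genes, 29 calls were lost without the block, and 0 were lost with another pseudocount or scaling, with another filter (133 of them passed a mean FPKM above 10), with the dark and 60 min samples alone or without any 1 of the 8 libraries fitted. These counts are of the adjusted p alone, without the 2-fold criterion. Genes named only from runs of neighbours were not followed.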

How the data were processed

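Per the labels and the study's methods, wild-type mycelium was kept in the dark or lit for 15, 60, 120 or 240 min, with 2 cultures at each time. Reads were called with CASAVA 1.8.2 and aligned with TopHat2 2.0.5, and Cufflinks and Cuffdiff gave the deposited FPKM of 9728 genes for each sample, which the authors computed in each replicate series on its own, with gene models of *N. crassa* assembly 10 and with corrections for fragment bias and for reads that map to several places. How Cuffdiff scaled the libraries is not given in the sources used here. FPKM keep no read counts, so no count test was run and the depth behind each value is unknown.

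Genes with mean FPKM above 1 at 1 or more times were kept (7688). log2(FPKM + 1) of the 8 samples at 0, 15, 60 and 120 min was fitted with limma 3.58.1 in R 4.3.3, with time and replicate number as terms, a mean-dependent prior and Benjamini-Hochberg adjustment. The samples at 240 min were left out because their replicates diverge. The fit had 3 residual degrees of freedom, and the median standard error of a log2 change was 0.116. A change was called at an adjusted p of 0.05 or less. The 2-fold criterion in both replicates was joined to it after the adjusted p alone was seen to call most genes. On this scale low genes change less than their FPKM. p-values measure the spread left after time and replicate number are fitted, pooled over the times and moderated across genes. A constant difference between the 2 replicates is not part of that spread. Same-numbered samples deviated together (correlations of deviations across expressed genes 0.76 to 0.841, and 0.76 for dark with 60 min), so the numbers were taken to pair the samples, as in the labels.

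The text names the 12 largest rises and falls with mean FPKM above 10 at 60 min or in the dark, the 5 largest gains and losses in FPKM among genes with an adjusted p of 0.05 or less, the 5 largest differences between replicates and members of 29 gene lists. Genes named from runs of neighbours were chosen after their values were seen. Members and lists were chosen with earlier results of these data known, and some lists follow tables of the study that were built on these samples, so their counts are not independent evidence. Symbols came from the study's tables and RefSeq (assembly NC12, 9218 loci matched), and of RefSeq only names and gene order were used. Alternatives were other pseudocounts, filters, scalings, thresholds and sample sets, no replicate block, and leaving out each library. The fit was tested on simulated data.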

Additional observations from a re-analysis of the deposited data

How the results depend on the processing

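Counts by the adjusted p alone moved with the fit and the scale. Higher and lower genes numbered 516 and 969 with all 10 samples, and 884 and 4599 with an equal sum, and 1465 genes were lower among those with mean FPKM above 10. Without the replicate block the adjusted p alone gave 717 higher and 695 lower genes, and with the 2-fold criterion 488 genes rose and 385 fell. By 2-fold in both replicates alone, 263 genes were higher with an equal sum, and lower genes numbered 844 with 0.1 added to FPKM, 153 with 5 added, 315 with mean FPKM above 10, 319 with median scaling and 1416 with an equal sum. By both criteria 314 genes rose with all 10 samples and 263 with an equal sum, and 837, 153, 315, 319 and 1416 fell under those 5 settings in the same order. With each library left out in turn, the adjusted p alone gave 1854 to 2106 higher and 2365 to 2687 lower genes, and both criteria gave 595 to 822 that rose and 520 to 763 that fell. With 1 replicate, 762 to 838 genes were 2-fold higher and 728 to 769 lower. Of 200 single genes followed, 6 changed sign, all with an equal sum (*ck-1a* -0.13, *rca-1* -0.10, *csp-1* -0.14, *ylo-1* -0.23, *csp-2* -0.29 and *acu-17* -0.0443). The cause of these shifts was not tested. FPKM without counts leave the precision of low genes unknown.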
